A study of Oryza sativa with 4 samples.

Results

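DNA replication licensing genes were followed through the RNA libraries of a rice study of OsGRF6, a growth-regulating factor. The set, chosen by locus identifier with earlier results of these data known, held 7 of the 55986 loci in the deposited expression table. It comprised the 6 subunits of the MCM helicase, MCM2 to MCM7, and PCNA, the sliding clamp of the replication fork. Names came from the list that defined the set, and RefSeq (assembly ASM3414082v1) lists a gene under each of the 7 names. The RefSeq gene of each name lies on the same chromosome as its locus in 7 of 7 cases, and its length differs from the deposited interval by 1 to 68 bp.

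The series held 4 libraries, 1 per group. For RNA, a MIM396 library was made from panicles (the flowering heads of rice) taken when secondary branches develop. MIM396 is a target mimic, a decoy RNA that sequesters the microRNA miR396, and it was driven by the 35S promoter, which is active in most plant tissues. The RNA library it was compared with is labelled wild type, of the variety Yutai B, and as panicles of the same stage. An OsGRF6-GFP ChIP library and a ChIP input library came from callus of lines with GRF6-GFP under the 35S promoter, and callus is cultured, undifferentiated tissue. The labels do not say whether MIM396 panicles shared the Yutai B background, how many plants were pooled or how many transgenic lines were used.

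Before a cell copies its DNA, the origin recognition complex and its helpers load the MCM ring onto origins, the step called licensing. The ring contains 1 copy of each of MCM2 to MCM7 and later opens the double helix as the core of the replicative helicase. PCNA encircles DNA and holds the polymerases and repair enzymes to it. In plants, genes of this group are known to be active in dividing cells such as those of meristems and young organs, and growth-regulating factors are known to promote cell proliferation in such organs, with miR396 acting against them. No sequence of these genes was used here.

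Recovered read totals were 13125593 in the MIM396 library and 16337526 in the library labelled wild type. With 1 library per group there is no replicate error and no test of genotype, so every difference below describes a pair of libraries, and the 95% intervals cover counting error only. The library labelled wild type went against its panicle label in its green leaf markers and in most, not all, of its panicle markers. All 12 loci listed as green leaf markers were light-harvesting and Rubisco small subunit genes by general knowledge. They lay between 0.134 and 12.0 FPKM (reads scaled by length and the authors' factor for each library, not by library totals) in MIM396. In the library labelled wild type they lay between 1877 and 17544 FPKM. Their summed level was 41.3 FPKM in MIM396 and 83717 FPKM in the library labelled wild type. Of 16 loci listed as panicle and meristem markers, 0 were at 0 FPKM in MIM396, against 7 in the library labelled wild type. Zeros are common: of all 55986 loci, 24527 had reads in MIM396 and 24720 in the library labelled wild type. Of those 7 markers, LOC_Os07g47330 had only 7 reads and LOC_Os06g45460 only 2 in MIM396. In MIM396, 13 of the 16 reached 1 FPKM, against 5 in the library labelled wild type, so several passed the floor through MIM396 alone. By the size rule given below, 23.1% of all loci with means of 1 FPKM or more were higher in MIM396 and 27.3% lower. Of the 16 markers, 10 were higher, 1 was lower, 2 were neither and 3 were under the floor of 1 FPKM. The lower one, LOC_Os06g50340, had 1.23 FPKM in MIM396 and 6.5 FPKM in the library labelled wild type. LOC_Os03g54160 had 94.0 FPKM in MIM396 and 111 FPKM in the library labelled wild type, and LOC_Os04g32510 had 0.876 and 1.67 FPKM in the same order. The summed level of the 16 was 1059 FPKM in MIM396, of which LOC_Os08g39890 gave 631, and 125 FPKM in the library labelled wild type, of which LOC_Os03g54160 gave 111. Only 1 library carries the wild-type label, so no value could be recomputed without it. These marker levels move with every difference given here. Their part in it was not tested, and with 1 library per group a difference of tissue cannot be told apart from one of genotype. Fewer dividing cells also cannot be told apart from less RNA per cell.

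All 6 MCM subunits were higher in MIM396, at 4.18 to 8.74 FPKM, than in the library labelled wild type, where they had 0.159 to 0.383 FPKM. PCNA was also higher in MIM396, but by a smaller ratio, and was well above the MCM genes in each library. Summed over the 6 subunits, MIM396 had 1781 reads, 136 reads per 1000000 (129 to 142, exact Poisson), and the library labelled wild type had 64 reads, 3.92 per 1000000 (3.02 to 5.00). The ratio of summed reads on the authors' scale was 22.2 (17.3 to 29.0, exact conditional binomial). It is smaller than the ratio of the rates per 1000000, because the rates use recovered totals and this ratio uses the authors' factors.

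**Figure D1:**
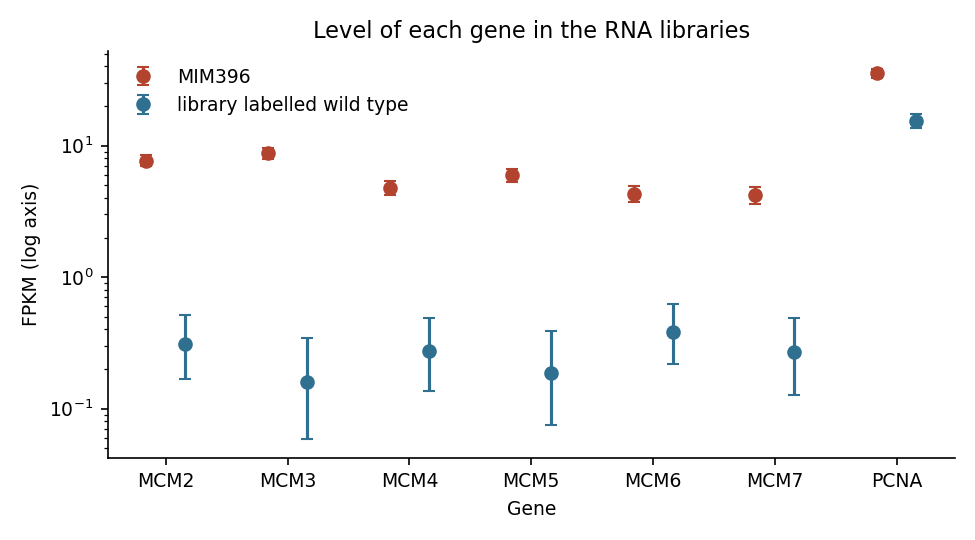
FPKM (log axis) of the 7 genes in the MIM396 library and in the library labelled wild type, with exact Poisson 95% intervals on the reads (1 library per point). MCM levels lie between 4.18 and 8.74 FPKM in MIM396 and between 0.159 and 0.383 FPKM in the library labelled wild type, with no overlap of intervals, and PCNA has 35.4 and 15.5 FPKM in the same order.

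Among the subunits, MCM3 (LOC_Os05g39850, chromosome 5, 23419592 to 23424596) had the widest ratio. In yeast, the end of this subunit is known to contact the origin recognition complex and Cdc6 when the ring is loaded. MCM3 had 8.74 FPKM (7.92 to 9.63) from 411 reads in MIM396 and 0.159 FPKM (0.0584 to 0.347) from 6 reads in the library labelled wild type, a ratio of scaled reads of 54.7 (24.9 to 149.9). It was the highest of the 6 subunits in MIM396 and the lowest in the library labelled wild type, where the intervals of the subunits overlapped.

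MCM5 (LOC_Os02g55410, chromosome 2, 33936187 to 33940538) forms, with MCM2, the gate through which DNA is known to enter the ring in yeast and flies. Its level was 5.94 FPKM (5.26 to 6.68) from 276 reads in MIM396 and 0.188 FPKM (0.0756 to 0.388) from 7 reads in the library labelled wild type, a ratio of 31.5 (15.1 to 79.0). MCM2 (LOC_Os11g29380, chromosome 11, 17046947 to 17052915), whose tail is known to bind histones in yeast and animals, had 7.66 FPKM (6.96 to 8.42) from 434 reads in MIM396. In the library labelled wild type it had 0.309 FPKM (0.169 to 0.518) from 14 reads, which gives a ratio of 24.8 (14.6 to 45.7). The ratio intervals of MCM5 and MCM2 overlap.

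MCM4, MCM6 and MCM7 are the subunits that unwind DNA in the absence of the others in animal and yeast preparations. They had the lowest levels of the 6 in MIM396 and the smallest MCM ratios, but their intervals do not set them apart as a group. The MIM396 level intervals of MCM5 and MCM4 overlap, and MCM3 and MCM6 are the only subunits with ratio intervals apart. For MCM4 (LOC_Os01g36390, chromosome 1, 20192024 to 20197004) the level was 4.79 FPKM (4.20 to 5.43) from 241 reads in MIM396 and 0.273 FPKM (0.136 to 0.488) from 11 reads in the library labelled wild type, a ratio of 17.5 (9.60 to 35.5). For MCM7 (LOC_Os12g37400, chromosome 12, 22954068 to 22959404) it was 4.18 FPKM (3.62 to 4.81) from 195 reads in MIM396 and 0.268 FPKM (0.128 to 0.492) from 10 reads in the library labelled wild type, a ratio of 15.6 (8.29 to 33.0). MCM6 (LOC_Os05g14590, chromosome 5, 8312906 to 8319399), the subunit that binds the loading factor CDT1 in yeast and human cells, had 4.30 FPKM (3.75 to 4.90) from 224 reads in MIM396. The library labelled wild type held 16 MCM6 reads, 0.383 FPKM (0.219 to 0.622), the most of any subunit there, and the ratio was 11.2 (6.73 to 19.9).

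PCNA (LOC_Os02g56130, chromosome 2, 34351406 to 34353656) had 35.4 FPKM (32.8 to 38.1) from 707 reads in MIM396 and 15.5 FPKM (13.6 to 17.5) from 249 reads in the library labelled wild type. Its ratio of scaled reads was 2.27 (1.96 to 2.63). The PCNA interval lay below that of each of the 6 MCM subunits. On the FPKM scale, PCNA was 5.96 times the mean of the MCM subunits in MIM396 and 58.7 times that mean in the library labelled wild type. FPKM corrects for length: 1 FPKM stood for 16.9 scaled reads at PCNA and 39.2 to 47.8 at the MCM loci in MIM396.

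**Figure D2:**
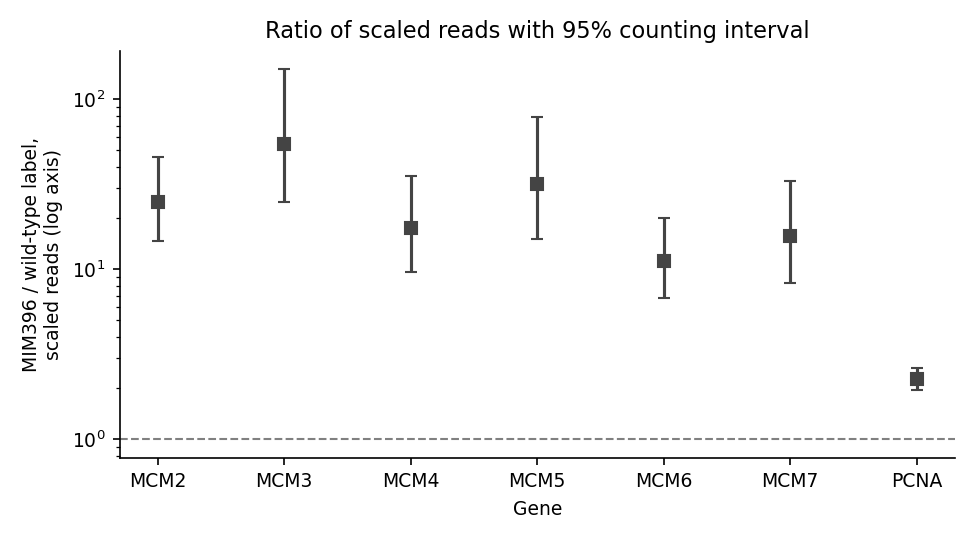
Ratio of scaled reads, MIM396 over the library labelled wild type, for the 7 genes (log axis), with exact conditional binomial 95% intervals and a dashed line at a ratio of 1. The 6 MCM ratios run from 11.2 to 54.7, and the PCNA ratio of 2.27 lies below all of their intervals.

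The subunits were then compared with each other, since the ring holds them in equal number. In MIM396 the highest, MCM3, was 2.09 times the lowest, MCM7 (1.76 to 2.49), and the coefficient of variation over the 6 levels was 31.9%. In each library, highest and lowest were picked from the same counts, so their ratio exceeds 1 by construction. The interval ignores that choice. In order of level in MIM396, the intervals of MCM3 and MCM2 overlapped, those of MCM2 and MCM5 did not, and each later pair of neighbours overlapped (MCM5 and MCM4, MCM4 and MCM6, MCM6 and MCM7). In the library labelled wild type the highest, MCM6, was 2.41 times the lowest, MCM3, with an interval of 0.894 to 7.51 that includes 1, and the coefficient of variation was 30.9%. A difference between subunits was therefore not detectable there at 6 to 16 reads each. Of the 15 pairs of subunits, 1 had ratios with intervals that did not overlap, that of MCM3 and MCM6.

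Placed among all expressed loci, the MCM genes were low in the library labelled wild type and near the middle in MIM396. They ranked at percentiles 46.3 to 60.3 of the loci above 0 FPKM in MIM396 and at percentiles 10.6 to 17.7 in the library labelled wild type. PCNA ranked at percentile 88.7 in MIM396 and 70.0 in the library labelled wild type. On the scale of log2(FPKM + 1), which understates differences of low loci, the log2 ratio was 3.07 for MCM3, 2.73 for MCM2, 2.55 for MCM5, 2.19 for MCM4, 2.03 for MCM7, 1.94 for MCM6 and 1.14 for PCNA. The 7 genes had a median of 2.19, against 0.00 over the 19456 loci with means of 1 FPKM or more (quartiles -1.16 and 0.91). The median over all loci depends on the scaling: with equal library totals it was 0.59, and that of the 7 genes was 2.52.

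Size alone decided the calls: a locus counted as higher or lower if its log2 ratio reached 1 or -1 and its mean reached 1 FPKM. By this rule 7 of the 7 genes were higher in MIM396 and 0 were lower, where 23.1% of all loci were higher and 27.3% lower. Each MCM subunit was under 1 FPKM in the library labelled wild type and passed the floor through MIM396 alone. With no floor the count was also 7 of 7, against 8.65% of all 55986 loci higher. The genes and all lists used here were chosen with earlier results of these data known. The shares of all loci are therefore a description beside these counts and not a test. A log2 ratio of at least 2 was reached by 5 of the 7, those other than MCM6 and PCNA, against 10.4% of the 19456 loci. Larger log2 ratios than that of MCM3 were found at 4.29% of these loci, and larger ones than that of PCNA at 20.5%.

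**Figure D3:**
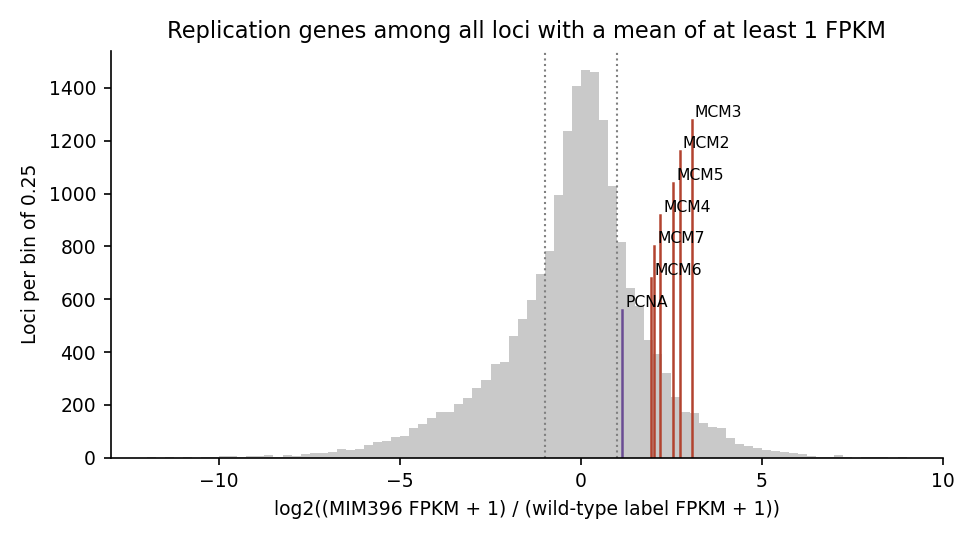
Number of loci per bin of 0.25 in the log2 ratio of MIM396 over the library labelled wild type, FPKM + 1 scale, for 19456 loci whose mean reached 1 FPKM, with dotted lines at the limits of 1 and -1. Vertical lines mark the 7 genes, which lie from 1.14 (PCNA) to 3.07 (MCM3), to the right of the limit of 1; line height has no meaning.

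The authors' deposited table gives each locus an FDR, which is a p-value corrected for the number of tests. In the authors' deposited table it was 0.00135 for MCM3, 0.00755 for MCM2, 0.0204 for MCM4, 0.0368 for MCM5 and 0.0477 for MCM6. MCM7 had an FDR of 0.0787 and PCNA of 0.409 in the authors' deposited table. Thus 5 of the 7 lay under 0.05 in that table, where 5.30% of the 19456 loci were under 0.05 and higher in MIM396. The test behind these values is unnamed in the labels and headers, and it had 1 library per group.

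Other genes of replication were less uniform. Of 19 further loci listed from general knowledge as replication genes (origin recognition, helicase loading, single-strand binding, polymerase, flap nuclease and nucleotide supply), 18 were found in the table. By the size rule with its floor, 15 of these 18 were kept. Of the 15, 7 were higher, 1 was lower and 7 were neither, against 23.1% of all loci higher and 27.3% lower. Without the floor, 8 of these 18 had a log2 ratio of at least 1, 1 had one of at most -1 and 9 had neither, against 8.65% of all loci higher and 10.1% lower. Their median log2 ratio was 0.82. Levels ran from 0.852 to 40.2 FPKM in MIM396 and from 0.0281 to 72.8 FPKM in the library labelled wild type. The deposited files name 1 of the 18, LOC_Os01g49010, described as similar to Origin recognition complex 4, a subunit of the complex that marks origins. It had 3.97 FPKM from 98 reads in MIM396 and 3.73 FPKM from 74 reads in the library labelled wild type, a ratio of 1.06 (0.774 to 1.45) whose interval includes 1. The intervals of the 7 licensing genes all lie above its upper bound of 1.45.

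Genes of the next steps of the cell cycle and of the miR396 pathway were also mostly higher in MIM396. All 5 loci listed from general knowledge as mitotic cyclins and cyclin-dependent kinases were higher in MIM396, at 13.3 to 51.3 FPKM, against 0.0797 to 9.83 FPKM in the library labelled wild type, with a median log2 ratio of 4.26. Of 12 loci listed as growth-regulating factors, the family that miR396 targets, 11 were higher in MIM396 and 1 was neither. They had a median of 46.1 FPKM in MIM396 and 0.407 FPKM in the library labelled wild type, where 3 of them were at 0. Most of these loci passed the floor through MIM396 alone, since 1 of the 5 mitotic and 4 of the 12 growth-regulating factor loci reached 1 FPKM in the library labelled wild type. With the floor, 23.1% of all loci were higher. With no floor the counts were also 5 of 5 and 11 of 12, against 8.65% of all loci. No difference between these lists and the licensing genes was tested.

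**Figure D4:**
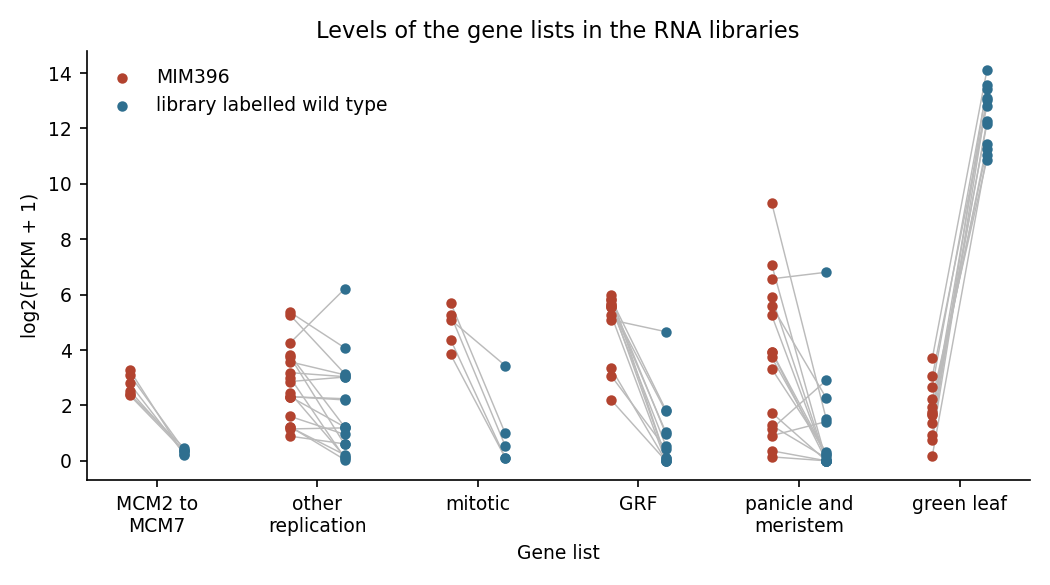
log2(FPKM + 1) of each locus of 6 gene lists in the MIM396 library and in the library labelled wild type, with a line joining the values of each locus. MCM2 to MCM7 and the mitotic loci are all higher in MIM396. Of the 18 other replication loci, with no floor, 8 reach the limit upward (8.65% of all loci), 1 downward (10.1%) and 9 neither. With the floor, 7 of 15 reach it upward (23.1% of all loci), 1 downward (27.3%) and 7 neither. The 12 green leaf loci, at 0.134 to 12.0 FPKM in MIM396, reach 1877 to 17544 FPKM in the library labelled wild type.

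Binding of OsGRF6-GFP in callus was examined at the same loci. The authors' list of 142 gene-assigned peaks, from 1 ChIP library and its input, placed a peak at 0 of the 7 genes. In all, 175 of the 55986 loci were at a peak. With so few loci at a peak, 0 of 7 does not set these genes apart. The nearest listed peak to a licensing gene was peak 17, which lay 149 kb from MCM4 (chromosome 1, 20040867 to 20043293). Peak 176 lay 311 kb from MCM2 and peak 109 lay 855 kb from MCM3, and for the other 4 genes the distance was over 1 Mb, with 3728 kb at MCM6 as the largest. These distances were not compared with those of other loci. Among the 18 other replication loci, 1 was at a peak. Peak 22 (chromosome 1, 28161091 to 28162866) overlapped LOC_Os01g49010 (28161731 to 28166115), the locus similar to Origin recognition complex 4, and reached into the 1 kb upstream of it. Peaks outside the list were not analysed here, and the tissue of the ChIP differs from that of the RNA.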

How the data were processed

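RNA libraries labelled as panicles (1 MIM396, 1 labelled wild type, whose markers go against that tissue label) and ChIP and input libraries from callus (1 each) were used. FastQC and Bowtie are listed in the submitters' processing notes. The counting tool, the genome build and any strand setting were not stated in the labels or headers, and coordinates are printed as deposited. The deposited read signal, in columns named as counts, was made by the authors by multiplying gene reads by 1 factor per library: 1 read is worth 0.844 in MIM396 and 1.06 in the library labelled wild type. After division by it, 99.0% of positive values in MIM396 and 97.8% in the library labelled wild type were whole to within 0.01 (99.7% of those under 50 reads in each), as were those of all 7 genes. In MIM396, 2 loci lay under 1 read. FPKM and FDR (a corrected p-value) were used as the authors deposited them.

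Log2 ratios used FPKM + 1 and a floor of 1 FPKM on the mean. Intervals are exact (Poisson for levels, conditional binomial for ratios) at 95%, and cover counting error only. They treat reads as independent and are too narrow if reads are PCR copies, which was not tested. With 1 library per group no count test was run. None of the 7 loci overlaps another locus. All 7 genes are named; loci of other lists are named where the files describe them. Sequences (promoters, proteins) were not used here, so the planned motif, identity and coding-length comparisons were left out. Members and lists were chosen with earlier results of these data known, and locus lists other than the 7 rest on general knowledge. The size rule and intervals were run on simulated counts with counting error alone and planted 4-fold changes. No variation between libraries was simulated. The MCM ratios are larger and rest on 6 to 16 reads in the library labelled wild type, so this run does not measure interval coverage for them. Tools were Python 3.11.15, pandas 2.3.3, SciPy 1.17.1, matplotlib 3.10.9, R 4.3.3 and edgeR 4.0.16 (TMM factors).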

Additional observations from a re-analysis of the deposited data

How the results depend on the processing

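Of 42 log2 ratios of single genes under 6 alternatives of pseudocount and scaling, 42 stayed above 0 (1.15 to 5.78). The 12 values of MCM subunits with a smaller or no pseudocount moved most, all upward. For MCM3 the value went from 3.07 to 5.09 with 0.1 FPKM added and 5.78 with none. PCNA, at 1.14, moved most by scaling (1.75 with equal library totals, 1.53 without the top 50 loci of each library in the totals). These FPKM + 1 values are not on the scale of the printed intervals, which are for ratios of scaled reads. The median over the 7 genes, 2.19, was 3.71 with 0.1 FPKM added and 4.13 with none, since adding 1 FPKM compresses low levels. With equal totals the median of all loci moved to 0.59 and that of the 7 genes to 2.52, a gap of 1.93. Without the top 50 loci these were 0.37, 2.39 and 2.03. TMM and median-of-ratios scaling left the median of the 7 genes at 2.19. The share of all loci called higher was 37.5% with equal totals and 31.3% without the top 50 loci, and the share lower was 20.0% and 22.2%. The count of genes past the limit stayed at 7 except with a mean of at least 10 FPKM, which keeps PCNA alone (count 1, median 1.14), and with a 4-fold limit (5). The spread of MCM levels per kilobase of locus interval, chosen after seeing the data, was 2.38 in MIM396 and 2.06 in the library labelled wild type. The same spread per coding length was not run. No paired analysis was possible because each group held 1 library, and no library could be left out. The 6 to 16 reads per MCM gene in the library labelled wild type, the deeper of the RNA libraries, set the width of the MCM ratio intervals.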

Other observations

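Near neighbours of the licensing genes were of several kinds. LOC_Os05g39840, 250 bases from MCM3, had 25.0 FPKM in MIM396 and 0.317 FPKM in the library labelled wild type. LOC_Os02g56140, 72 bases from PCNA, had 18.9 FPKM in MIM396 and 0.763 FPKM in the library labelled wild type. LOC_Os12g37390, 84 bases from MCM7, had 26.8 FPKM in MIM396 and 17.5 FPKM in the library labelled wild type, a log2 ratio of 0.59 on the FPKM + 1 scale beside 2.03 at MCM7. LOC_Os02g55400 lies 6 bases from MCM5 and had 25 reads in MIM396 and 0 in the library labelled wild type. LOC_Os05g14600, 786 bases from MCM6, had 0 reads in each library. No strand setting is stated for the counting, and whether reads at these short gaps were divided between neighbours was not tested.

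Among loci that the peak table describes, those nearest to the mean of the 7 genes in log2(FPKM + 1) of the 2 RNA libraries were LOC_Os01g63240, a reticulon family gene, at a distance of 0.51, LOC_Os03g25750, a SNARE associated Golgi protein gene, at 0.69, and LOC_Os07g04220, a serine/threonine protein kinase gene, at 0.88. LOC_Os01g63240 had 11.1 FPKM in MIM396 and 0.967 FPKM in the library labelled wild type. LOC_Os03g25750 had 1.84 FPKM and LOC_Os07g04220 had 0.943 FPKM in the library labelled wild type. The mean includes PCNA, and in that library each of these loci lay above every MCM gene (0.159 to 0.383 FPKM) and below PCNA (15.5 FPKM). With 2 libraries this likeness is a description of levels only.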
